A study of Mus musculus with 12 samples.

Results

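The transcripts described here encode 7 enzymes of asparagine, proline and phosphoenolpyruvate (PEP) synthesis and of the aspartate and glutamate reactions linked to it. They were taken by symbol from a table of 42329 gene entries, each had a single entry, and all 7 had enough signal to be tested. The list was drawn up with earlier results of these data known, and which values weighed in its choice is not recorded. Their levels and changes are therefore given as a description, without printed p-values. An adjusted p serves below only as a threshold for naming a change, and not as a test of the list.

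The cells were MC38, a mouse colon adenocarcinoma line. One population carried a control guide RNA (sgControl) and the other a guide (sgHcar1) against Hcar1, which encodes a cell-surface lactate receptor. Each population was kept with PBS, a saline vehicle, or with 20 mM lactate for 24 hours. There were 3 libraries for each of the 4 combinations, 12 in all. The labels do not name the nuclease, do not say whether a population was a pool or a clone, and do not say whether libraries came from separate cultures. All spreads are therefore between libraries, which may be technical. The labels name a single population for each guide. Differences between guides therefore cannot be told apart from other differences between the populations.

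Asparagine synthetase (Asns) moves an amide group from glutamine to aspartate. The aspartate comes from oxaloacetate through the cytosolic and mitochondrial aspartate aminotransferases, Got1 and Got2. Aldh18a1 encodes pyrroline-5-carboxylate synthase, which starts proline synthesis from glutamate, and Pycr1 encodes a mitochondrial reductase that completes it. Pck2 is the mitochondrial PEP carboxykinase, which makes PEP from oxaloacetate, and Glud1, glutamate dehydrogenase, links glutamate to 2-oxoglutarate. In many cell types Asns, Aldh18a1, Pycr1 and Pck2 are known as targets of ATF4, the transcription factor of the integrated stress response, which acts on Asns through a nutrient-sensing unit at its promoter.

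Promoter sequences are shown for the 5 of these genes whose levels rose most with lactate in sgControl cells, because the best known of these control elements lies in this region. Each runs from 250 bases before to 50 bases after the RefSeq transcription start, 5′ to 3′ along the transcribed strand, in build GRCm38.p6. Capitals mark matches, on either strand, to TGATGNAA, the core of the element bound by ATF4 with C/EBP proteins, to GTTACA, the other element of the Asns nutrient-sensing unit, and to the E-box CACGTG.
Asns, chr6:7693160-7693459, minus strand: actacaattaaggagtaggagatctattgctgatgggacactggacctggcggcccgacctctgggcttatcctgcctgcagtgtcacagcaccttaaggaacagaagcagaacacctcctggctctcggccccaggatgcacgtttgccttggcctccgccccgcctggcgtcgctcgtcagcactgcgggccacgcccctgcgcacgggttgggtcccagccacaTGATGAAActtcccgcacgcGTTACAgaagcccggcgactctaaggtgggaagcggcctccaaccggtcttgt
Pck2, chr14:55540016-55540315, plus strand: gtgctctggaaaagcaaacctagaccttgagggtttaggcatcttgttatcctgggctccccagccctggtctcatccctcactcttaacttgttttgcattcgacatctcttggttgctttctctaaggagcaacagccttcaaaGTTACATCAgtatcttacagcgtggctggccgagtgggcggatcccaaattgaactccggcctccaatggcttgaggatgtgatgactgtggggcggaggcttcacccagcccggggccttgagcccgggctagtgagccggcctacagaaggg
Pycr1, chr11:120643699-120643998, minus strand: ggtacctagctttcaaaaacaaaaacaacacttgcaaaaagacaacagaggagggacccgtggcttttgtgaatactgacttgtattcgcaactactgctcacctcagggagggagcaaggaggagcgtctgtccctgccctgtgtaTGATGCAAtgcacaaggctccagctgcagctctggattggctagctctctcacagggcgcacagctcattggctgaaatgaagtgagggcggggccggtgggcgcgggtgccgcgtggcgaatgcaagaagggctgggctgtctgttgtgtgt
Got1, chr19:43524556-43524855, minus strand: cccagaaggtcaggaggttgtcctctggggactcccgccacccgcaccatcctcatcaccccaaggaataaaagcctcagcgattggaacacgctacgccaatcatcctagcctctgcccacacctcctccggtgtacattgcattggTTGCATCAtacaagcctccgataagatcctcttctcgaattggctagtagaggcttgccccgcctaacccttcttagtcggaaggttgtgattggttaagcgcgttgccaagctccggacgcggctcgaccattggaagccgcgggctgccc
Aldh18a1, chr19:40588414-40588713, minus strand: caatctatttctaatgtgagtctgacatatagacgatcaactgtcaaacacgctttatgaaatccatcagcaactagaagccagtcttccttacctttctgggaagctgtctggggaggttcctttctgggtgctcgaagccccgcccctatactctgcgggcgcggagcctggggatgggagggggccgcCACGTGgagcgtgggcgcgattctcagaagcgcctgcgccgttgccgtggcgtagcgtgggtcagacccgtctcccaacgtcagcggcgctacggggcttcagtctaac

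TGATGNAA was found in 4 of the 7 windows, those of Asns, Pck2, Pycr1 and Got1, and in 3.97% of all 32851 RefSeq promoter windows of this length. In Asns it lay 23 to 16 bases before the start, as transcribed, and GTTACA followed it across the start. In Pycr1 the match lay 103 to 96 bases before the start. In Pck2 it occupied the same distance on the opposite strand and overlapped a GTTACA match, and in Got1 it lay 102 to 95 bases before the start on the opposite strand. GTTACA was found in 8.25% of all windows. Aldh18a1 held a CACGTG match, 59 to 54 bases before its start, against 7.15% of all windows. The windows of Got2 and Glud1 held none of the 3 motifs. A match is a description of the letters and not a measurement of binding.

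Values are FPKM, that is fragments normalised to the length of the gene model and to the size of the library, as deposited, and levels of different genes are compared on this scale only. Changes are differences of log2(FPKM + 1) with their standard error (SE) from limma, fitted across all 13736 genes that reached 1 FPKM in at least 3 libraries. A gene is said to have risen or fallen where its Benjamini-Hochberg adjusted p over all these genes was under 0.05. The files give no read counts. Low values put the depth of the libraries at 0.746 to 1 of the deepest, with the lowest values in the sgHcar1 lactate libraries. Libraries of a group correlated at 0.990 to 0.992 and libraries of different groups at 0.765 to 0.947 (log2 levels across genes). Hcar1 was at 0 in 6 of 6 libraries with the control guide and in 5 of 6 with the other, so the guide could not be checked on its target. Of 7 epithelial markers, Epcam and Cdx2 were listed at 0 in every library, so the labelled colon origin was not seen in those genes. The 3 that reached 1 FPKM in some library were Krt18, Krt19 and Cdh1, with Krt18 at up to 114 FPKM in sgHcar1 cells. Of 5 leukocyte markers Cd3e and Itgam were at 0 throughout, and Cd68, a lysosomal protein gene used to mark macrophages, was the 1 that reached 1 FPKM in any library.

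Asns rose with lactate in both populations, and as deposited its levels fell into 4 separate steps. In sgControl cells with PBS the 3 libraries held 40.3, 39.9 and 37.4 FPKM, and with lactate 154, 161 and 157 FPKM. In sgHcar1 cells they held 197, 194 and 185 FPKM with PBS and 354, 358 and 351 FPKM with lactate. As deposited, no library of any group overlapped another group, and sgHcar1 cells without lactate already stood above sgControl cells with it. Other scalings brought these groups close together. Above sgControl cells with PBS they stood at 2.11 and 2.04 on the log2 scale with libraries rescaled to the same total. With quantile normalization the values were 2.18 and 2.11. Overlap of libraries under these scalings was not examined. The log2 change with lactate was 1.98 ± 0.03 (SE, n = 3 per group) in sgControl cells, a 3.94-fold rise on this scale, and 0.88 ± 0.03 in sgHcar1 cells. Between guides the change was 2.27 ± 0.03 in PBS and 1.17 ± 0.03 in lactate, sgHcar1 higher in each.

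Got1, the cytosolic aspartate aminotransferase, rose under both guides. Its libraries held 32.7, 33.8 and 33.7 FPKM in sgControl cells with PBS and 84.6, 86.0 and 86.3 FPKM with lactate. In sgHcar1 cells they held 71.2, 69.8 and 73.1 FPKM with PBS and 186, 189 and 195 FPKM with lactate. The groups did not overlap and kept the order seen for Asns except that sgHcar1 PBS lay below sgControl lactate. The lactate changes were 1.33 ± 0.03 and 1.40 ± 0.03, and their difference, 0.07 ± 0.04, did not pass. The guide changes were 1.07 ± 0.03 in PBS and 1.14 ± 0.03 in lactate.

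Got2, the mitochondrial partner, moved by far less. It held 115, 116 and 110.0 FPKM in sgControl cells with PBS, 107, 104 and 108 FPKM with lactate, 79.9, 81.0 and 83.2 FPKM in sgHcar1 cells with PBS and 94.8, 94.2 and 90.9 FPKM with lactate. It fell slightly with lactate in sgControl cells (-0.10 ± 0.03) and rose slightly in sgHcar1 cells (0.19 ± 0.03). The fall no longer passed without sgControl PBS replicate 2 (-0.08) or without sgControl lactate replicate 2 (-0.08). With libraries rescaled to the same total neither passed (-0.05 and 0.01), nor with quantile normalization (-0.02 and 0.03). Got2 was lower in sgHcar1 than in sgControl cells, by -0.48 ± 0.03 in PBS and -0.19 ± 0.03 in lactate. The value in lactate was -0.60 with libraries rescaled to the same total and -0.49 with quantile normalization.

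The balance of the cytosolic and mitochondrial forms can be read within each library, where scaling the library by a single factor cannot move it. Quantile normalization is not such a scaling. The ratio of Got1 to Got2 FPKM was 0.294 ± 0.0109 (SD, n = 3) in sgControl cells with PBS and 0.806 ± 0.0213 with lactate. In sgHcar1 cells it was 0.877 ± 0.0151 with PBS and 2.04 ± 0.0943 with lactate, the only group in which the cytosolic transcript was the more abundant. The log2 ratio rose by 1.46 and 1.22 with lactate, with no overlap between the libraries of a pair in either population.

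Aldh18a1, at the entry to proline synthesis, rose under both guides and stood at 114 to 121 FPKM in all 6 lactate libraries. In sgControl cells it held 34.8, 32.0 and 32.8 FPKM with PBS and 118, 119 and 121 FPKM with lactate. In sgHcar1 cells it held 68.8, 66.9 and 75.0 FPKM with PBS and 114, 115 and 115 FPKM with lactate. The lactate changes were 1.81 ± 0.04 and 0.70 ± 0.04. Between guides the change was 1.06 ± 0.04 in PBS, and in lactate it was -0.06 ± 0.04 and did not pass, although the libraries did not overlap.

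Pycr1, at the end of the pathway, was the least abundant of the 7 transcripts and its high level was seen in sgControl cells with lactate. It held 4.30, 3.57 and 4.02 FPKM in sgControl cells with PBS and 15.9, 15.6 and 15.5 FPKM with lactate. In sgHcar1 cells it held 3.52, 3.33 and 3.42 FPKM with PBS and 5.57, 5.25 and 5.43 FPKM with lactate. Each rise was free of overlap, at 1.75 ± 0.05 in sgControl and 0.54 ± 0.05 in sgHcar1 cells. The pseudocount of 1 FPKM holds down changes at these levels. The guides were close in PBS (-0.16 ± 0.05), a difference that no longer passed without sgControl PBS replicate 1 (-0.12), and far apart in lactate (-1.38 ± 0.05).

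Pycrl, which encodes a cytosolic pyrroline-5-carboxylate reductase, was more abundant than Pycr1 per length in all 4 groups. It fell in sgControl cells from 29.6 ± 1.38 to 20.9 ± 0.255 FPKM (SD, n = 3) and was at 36.5 ± 1.12 and 35.0 ± 0.434 FPKM in sgHcar1 cells, where it did not pass as deposited (-0.06) but fell with libraries rescaled to the same total (-0.25) or with quantile normalization (-0.20). Prodh, which starts proline breakdown, was at 6.44 ± 0.248 and 6.08 ± 0.606 FPKM in sgControl cells but at 0.460 ± 0.107 and 0.0974 ± 0.0597 FPKM in sgHcar1 cells, with guide changes of -2.35 ± 0.08 in PBS and -2.69 ± 0.08 in lactate (limma adjusted p = 2.26e-10 and 5.71e-11). Oat, which feeds the pathway from ornithine, was at 64.5 ± 2.67 and 63.5 ± 0.785 FPKM in sgControl cells and did not pass, and rose in sgHcar1 cells from 43.2 ± 1.62 to 55.1 ± 0.606 FPKM. Its difference between the lactate effects (0.37) passed.

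Pck2 rose with lactate in sgControl cells, more than any other of the 7 on this scale, and fell in sgHcar1 cells. It held 26.1, 25.2 and 26.6 FPKM in sgControl cells with PBS and 114, 115 and 113 FPKM with lactate. In sgHcar1 cells it held 44.5, 43.7 and 46.2 FPKM with PBS and 34.1, 34.1 and 35.1 FPKM with lactate. All 3 lactate libraries were above all PBS libraries in sgControl cells and below them in sgHcar1 cells. The changes were 2.09 ± 0.03 and -0.37 ± 0.03. Against sgControl, sgHcar1 cells were higher in PBS (0.76 ± 0.03) and lower in lactate (-1.70 ± 0.03).

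Around PEP, the cytosolic carboxykinase Pck1 had no signal in any sgControl library and reached a mean of at most 0.0070 FPKM in sgHcar1 cells. Pcx, pyruvate carboxylase, which makes oxaloacetate from pyruvate, rose with lactate from 3.69 ± 0.330 to 5.52 ± 0.580 FPKM in sgControl cells and from 7.82 ± 0.697 to 14.0 ± 0.485 FPKM in sgHcar1 cells. Pkm, pyruvate kinase, which consumes PEP, fell under both guides (-0.95 ± 0.04 and -0.83 ± 0.04). Me2, a mitochondrial malic enzyme, fell from 78.6 ± 2.99 to 25.5 ± 1.24 FPKM and from 107 ± 6.32 to 29.8 ± 1.26 FPKM, while Me1, the cytosolic form, rose (0.13 and 0.72), although the first did not pass with quantile normalization (0.07).

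Glud1 was lower in sgHcar1 cells and did not pass with lactate under either guide. It held 88.2, 86.9 and 85.6 FPKM in sgControl cells with PBS, 86.2, 88.4 and 88.3 FPKM with lactate, 36.0, 37.0 and 38.0 FPKM in sgHcar1 cells with PBS and 37.6, 34.8 and 38.1 FPKM with lactate. The PBS and lactate libraries overlapped within each population, and the populations did not overlap. The lactate changes were 0.01 ± 0.03 and -0.01 ± 0.03, and the guide changes -1.21 ± 0.03 in PBS and -1.23 ± 0.03 in lactate. In RNA from whole cultures, a smaller share of cells with the transcript and less of it per cell cannot be told apart.

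**Figure D1:**
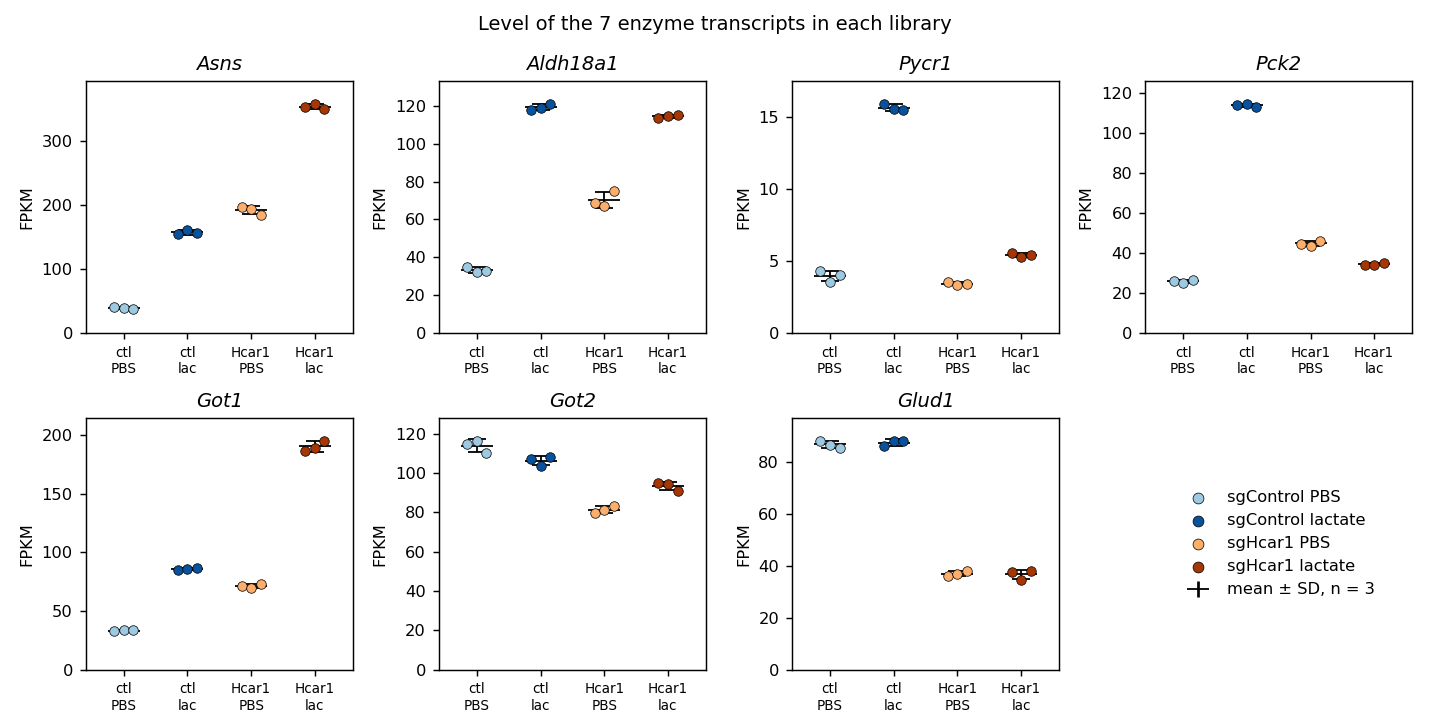
FPKM of each of the 7 transcripts (vertical axes, linear, from 0, each panel on its own scale) in the 12 libraries, by guide (ctl is sgControl, Hcar1 is sgHcar1) and treatment (lac is lactate). Points are libraries and bars the mean ± SD of 3. Asns climbed to 351 to 358 FPKM in sgHcar1 cells with lactate, whereas Pck2 and Pycr1 peaked in sgControl cells with lactate at 113 to 115 and 15.5 to 15.9 FPKM.

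Counted over the list, 5 of the 7 transcripts rose with lactate in sgControl cells (Asns, Aldh18a1, Pycr1, Pck2 and Got1), 1 fell and Glud1 did not pass. Over all genes tested, 65.7% passed in that comparison, 33.9% higher and 31.9% lower. The 5 rises were each at least 2-fold on this scale, against 4.26% of all genes. Because the list was drawn up with earlier results of these data known, the shares and medians over all genes are background and no test. PBS and lactate libraries did not overlap for 6 of the 7, the exception being Glud1, as for 70.2% of all genes. The median change of the 7 was 1.75, beside 0.0010 over all genes. In sgHcar1 cells 5 rose (Asns, Aldh18a1, Pycr1, Got1 and Got2) and Pck2 fell, against 72.2% of genes past the threshold, 36.8% higher and 35.4% lower. With libraries rescaled to the same total Got2 passed under neither guide (-0.05 and 0.01), and Glud1 fell in sgHcar1 cells (-0.19). As deposited, Got1 alone passed 2-fold in sgHcar1 cells, against 8.83% of genes, and 6 of the 7 did not overlap, as for 73.6% of genes. The median was 0.54, beside 0 over all genes. Asns, Aldh18a1, Pycr1 and Got1 rose under both guides, as did 23.1% of all genes.

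The difference between the lactate effects passed for 5 of the 7, against 59.1% of all genes (30.4% higher and 28.7% lower). It was negative for Asns (-1.10 ± 0.05), Aldh18a1 (-1.12 ± 0.06), Pycr1 (-1.21 ± 0.07) and Pck2 (-2.46 ± 0.04). It was positive for Got2 (0.29 ± 0.04), but there it did not pass with libraries rescaled to the same total (0.06) or with quantile normalization (0.05). On the log2 scale Asns, Aldh18a1 and Pycr1 thus rose less under the sgHcar1 guide, whereas Pck2 fell there instead of rising. In FPKM the mean of Asns went from 39.2 to 157 under sgControl and from 192 to 354 under sgHcar1, where the step was larger. The FPKM steps of Aldh18a1 and Pycr1 were smaller under sgHcar1.

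Between guides in PBS all 7 passed, 4 higher in sgHcar1 cells (Asns, Aldh18a1, Pck2, Got1) and 3 lower (Pycr1, Got2, Glud1), against 76.7% of all genes, 38.2% higher and 38.4% lower. In lactate 6 passed, Asns and Got1 higher and Pycr1, Pck2, Got2 and Glud1 lower, against 82.2% of genes, 41.3% higher and 40.9% lower. The guides did not overlap for any of the 7 in PBS or in lactate, as for 79.2% and 82.3% of genes. The guide comparison in PBS and the lactate comparison in sgHcar1 cells share the sgHcar1 PBS libraries, so their values stand side by side only. Cell type markers differed between the populations. The summed level of the 7 epithelial markers was 2.98 to 3.29 FPKM in sgControl and 44.9 to 48.5 FPKM in sgHcar1 libraries with PBS, and 4.85 to 5.16 and 110.3 to 114 FPKM with lactate and nearly all of it was Krt18 in sgHcar1 cells. Other epithelial markers went the other way, since Cdh1 was at 1.72 ± 0.210 and 4.53 ± 0.140 FPKM in sgControl cells with PBS and lactate and Krt19 at 1.31 ± 0.295 and 0.300 ± 0.0637 FPKM, and each of the 6 sgHcar1 libraries listed both at 0. That of the 7 fibroblast markers was 135 to 139 and 141 to 149.9 FPKM with PBS, and 119.9 to 125 and 65.9 to 71.9 FPKM with lactate, with Lum and Thy1 at 0 throughout. The close sums in PBS held opposite differences between sgControl and sgHcar1 cells. Levels were lower in sgHcar1 cells for Col3a1 (67.2 ± 1.54 against 1.55 ± 0.143 FPKM), Pdgfra (5.02 ± 0.0302 against 0.462 ± 0.0687 FPKM) and Pdgfrb (17.8 ± 0.663 against 5.08 ± 0.129 FPKM). They were higher there for Col1a1 (1.01 ± 0.0777 against 23.1 ± 1.17 FPKM) and for Col1a2 (45.5 ± 0.404 against 115 ± 3.41 FPKM). The leukocyte marker Cd68 differed between the populations and rose with lactate, from 4.36 ± 0.587 to 6.54 ± 0.387 FPKM in sgControl cells and from 1.78 ± 0.425 to 4.91 ± 0.831 FPKM in sgHcar1 cells. The part of these markers in the differences of the 7 transcripts was not tested.

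**Figure D2:**
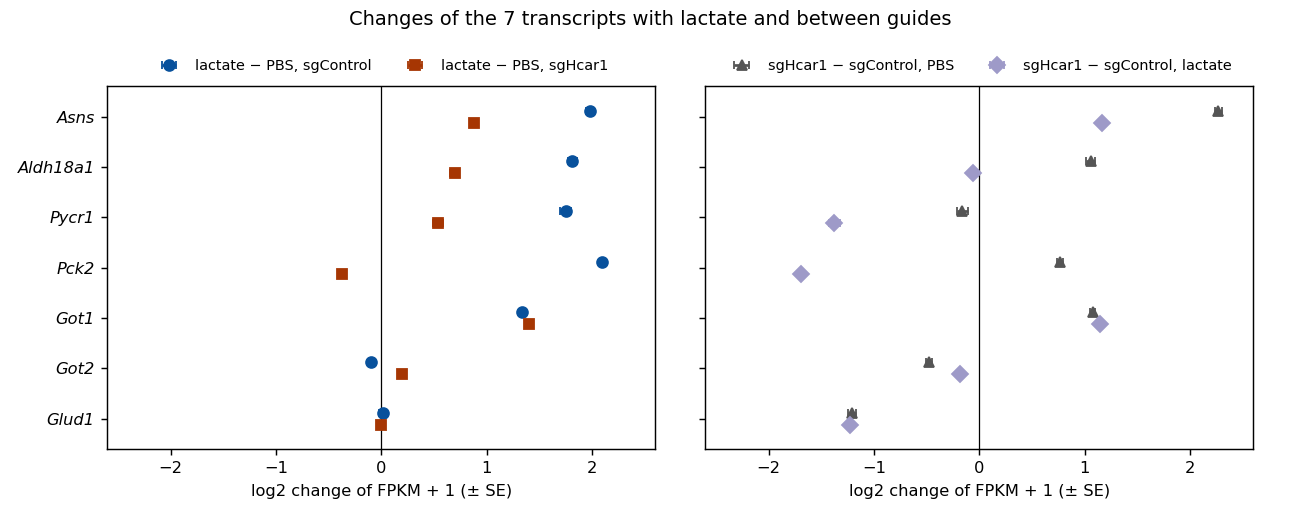
Change of log2(FPKM + 1) ± SE (horizontal axes) of each transcript with lactate under each guide (left) and between guides in each medium (right). The left panel shows Pck2 at 2.09 in sgControl and -0.37 in sgHcar1 cells while the values of Got1 lie side by side, and the right panel shows Glud1 at -1.21 and -1.23.

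Other genes of the same pathways were taken from 4 lists chosen by pathway, with 42 of 45 symbols found and 36 genes tested. Of these 12 rose and 20 fell with lactate in sgControl cells (median -0.15), and 13 rose and 16 fell in sgHcar1 cells (median -0.08). Over all genes tested 33.9% were higher and 31.9% lower with lactate in sgControl cells, and 36.8% and 35.4% in sgHcar1 cells. The same shares are the background to the counts of the single lists. In the difference between lactate effects 12 were higher and 14 lower, against 30.4% and 28.7% of all genes. Between guides 20 were higher and 10 lower in PBS, against 38.2% and 38.4%, and 18 and 13 in lactate, against 41.3% and 40.9%. With libraries rescaled to a sum of 1000000 each these counts became 12 and 17 for lactate in sgControl cells, 10 and 19 in sgHcar1 cells, 9 and 19 for the difference, 17 and 14 between guides in PBS and 12 and 20 in lactate.

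Of 10 tested genes of aspartate and asparagine handling, 4 rose and 6 fell in sgControl cells, and 2 rose and 4 fell in sgHcar1 cells. Nars, which charges tRNA with asparagine, rose most, from 104 ± 2.30 to 382 ± 3.27 FPKM in sgControl and from 231 ± 2.68 to 590 ± 14.8 FPKM in sgHcar1 cells (limma log2 change 1.87 ± 0.03 and 1.35 ± 0.03, adjusted p = 2.37e-12 and 8.31e-12). The malate-aspartate shuttle runs through the products of Got1, Got2, Mdh1, Mdh2, Slc25a11, Slc25a12 and Slc25a13. Mdh1, Mdh2, Slc25a11 and Slc25a13 fell under both guides, with Mdh1 going from 70.6 ± 0.421 to 49.9 ± 1.90 FPKM in sgControl and from 69.1 ± 2.16 to 44.4 ± 0.674 FPKM in sgHcar1 cells. Slc25a12 fell slightly in sgControl cells (-0.15 ± 0.05) and rose slightly in sgHcar1 cells (0.16 ± 0.05), and with libraries rescaled neither passed (-0.12 and -0.0010). Ass1, which uses aspartate to make argininosuccinate, rose in sgControl cells from 9.30 ± 1.00 to 14.2 ± 0.698 FPKM, and each of the 6 sgHcar1 libraries listed it at 0.

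Of 8 proline genes 1 rose and 4 fell in sgControl cells, and 3 rose and 3 fell in sgHcar1 cells. The riser common to both was Eprs, which charges tRNA with glutamate and proline (1.55 ± 0.04 and 0.90 ± 0.04). P4ha1 and P4ha2, which hydroxylate proline in collagen, fell under both guides, P4ha1 from 58.1 ± 2.27 to 30.2 ± 0.794 FPKM and from 73.8 ± 1.60 to 55.3 ± 2.12 FPKM. Of 7 genes of PEP, pyruvate and malate, 2 rose and 5 fell under each guide. The mitochondrial dicarboxylate carrier gene Slc25a10 fell by 1.36 and 1.73 on the log2 scale.

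Of 11 tested genes of glutamate and glutamine, 5 rose and 5 fell in sgControl cells, and 6 rose and 4 fell in sgHcar1 cells. Gpt2, the mitochondrial alanine aminotransferase, rose from 3.87 ± 0.362 to 29.8 ± 0.773 FPKM in sgControl cells and from 15.6 ± 0.850 to 24.9 ± 0.501 FPKM in sgHcar1 cells (difference between lactate effects -2.02 ± 0.08, limma adjusted p = 1.05e-08). Glul, glutamine synthetase, fell in sgControl cells from 20.4 ± 0.481 to 15.2 ± 0.960 FPKM and rose in sgHcar1 cells from 14.7 ± 0.475 to 28.2 ± 2.82 FPKM. Gfpt1, which uses glutamine for hexosamines, rose by 0.47 ± 0.04 and 1.30 ± 0.04. Gls2, a glutaminase, fell under both guides (-0.93 ± 0.06 and -0.85 ± 0.06). Ogdh, which consumes 2-oxoglutarate, was lower in sgHcar1 cells in PBS (-1.20 ± 0.05) and in lactate (-0.71 ± 0.05), as Glud1 was.

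**Figure D3:**
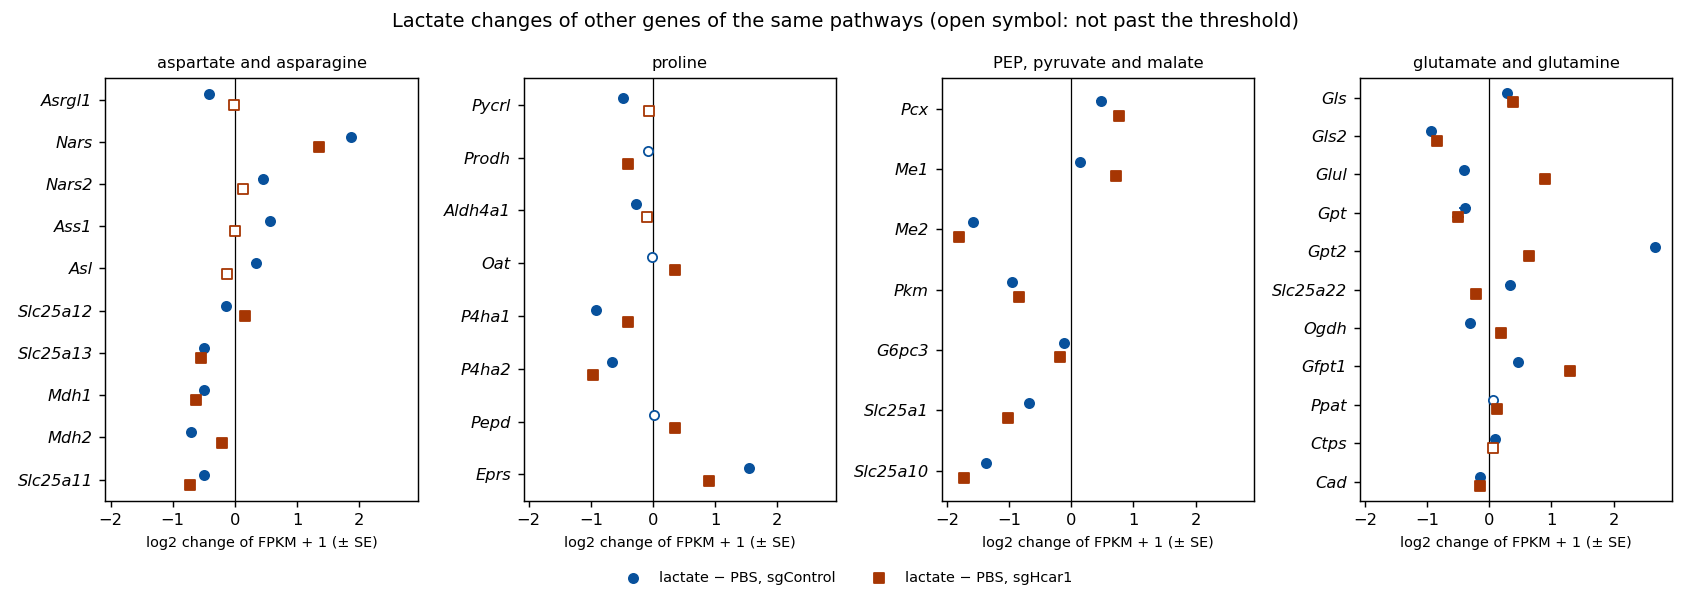
Change of log2(FPKM + 1) with lactate ± SE (horizontal axes) for the 36 tested genes of 4 related lists, in sgControl (blue circles) and sgHcar1 cells (brown squares), with open symbols for genes that did not pass. Gpt2 at 2.66 and Nars at 1.87 in sgControl cells stand farthest to the right, and Me2 and Slc25a10 farthest to the left.

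Genes of the integrated stress response, of which Atf4 is known to drive several of these enzymes, were measured in the same libraries. Atf4 was at 221 ± 5.25 and 768 ± 1.07 FPKM in sgControl cells with PBS and lactate, and at 495 ± 15.2 and 632 ± 7.58 FPKM in sgHcar1 cells. Of 10 such genes all 10 rose in sgControl cells, against 33.9% of all genes, and 8 in sgHcar1 cells, against 36.8%. The difference between lactate effects was negative and past the threshold for 9, Nupr1 being the other, against 28.7% of all genes. The rise of Atf4 in sgHcar1 cells (0.35) no longer passed with quantile normalization (0.04). Atf3 (0.06) and Atf5 (0.07) did not pass with lactate in those cells as deposited. Between guides in lactate Atf4 was lower in sgHcar1 cells (-0.28), as were Pycr1 (-1.38), Pck2 (-1.70), Got2 (-0.19) and Glud1 (-1.23). Asns (1.17) and Got1 (1.14) were higher, and Aldh18a1 did not pass (-0.06). The tests were chosen with earlier results known, so the shares of all genes are background only. Whether Atf4 drove the changes of these enzymes was not tested.

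Genes with the most similar pattern were sought by Pearson correlation of log2(FPKM + 1) over the 12 libraries, against 9850 genes with a standard symbol. As libraries of a group share their condition, r mostly reflects the 4 group levels, and it does not measure the size of a change. Closest to Asns were Ern1 (r = 0.997), Krtcap2 and Chrnb1. The nearest to Aldh18a1 were Lmo4 (r = 0.995), Rps6ka2 and Xpot, and to Pycr1 they were Gdf15 (r = 0.993), Phf21a and Pld1. Pck2 had 1 close neighbour, Acp6 (r = 0.994), followed by Fam71f1 (r = 0.972) and Josd1. Got1 was nearest to Mtdh (r = 0.999), Grina and Derl1, Got2 to Car13 (r = 0.989), Gspt1 and Smim7, and Glud1 to Stac2 (r = 0.999), Ngfr and F2rl1. Sizes could differ widely. With PBS, mean Stac2 was 16.1 FPKM in sgControl and 0.039 in sgHcar1 cells, where Glud1 was at 86.9 and 37.0. With lactate in sgControl cells Gdf15 went from 0.858 to 38.9 FPKM and Pycr1 from 3.96 to 15.7. Ern1 was closer in size to Asns there, going from 3.88 to 16.0 FPKM beside 39.2 to 157. Rescaling each library to the same total kept Ern1, Lmo4, Rps6ka2, Pld1, Acp6, Grina and Derl1 among the nearest 3.

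The scaling of the libraries moved large as well as small changes. Summed FPKM was 310109 to 324562 in sgControl libraries, 362815 to 367977 in sgHcar1 libraries with PBS and 411996 to 421984 with lactate. With each library rescaled to a sum of 1000000, the median of all genes moved to -0.12 for lactate in sgHcar1 cells, -0.20 for the difference between lactate effects, -0.16 for the guides in PBS and -0.37 for the guides in lactate. The share of called genes that were higher went from 50.9% to 40.0%, from 51.4% to 30.1%, from 49.9% to 38.6% and from 50.3% to 31.7% in these comparisons. Asns and Pck2 kept every direction and call under it, but not every size. Between guides in lactate Asns went from 1.17 to 0.76 (0.70 with quantile normalization), Got1 from 1.14 to 0.74, Pycr1 from -1.38 to -1.87 and Pck2 from -1.70 to -2.12. The fall of Pck2 with lactate in sgHcar1 cells went from -0.37 to -0.56, and Pycr1 between guides in PBS from -0.16 to -0.36. Glud1 in sgHcar1 cells went to -0.19 with lactate and passed, its difference between lactate effects went to -0.25 and passed, and the difference of lactate effects for Got1 turned to -0.17 and passed. Aldh18a1 between guides in lactate went to -0.47 and passed.

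**Figure D4:**
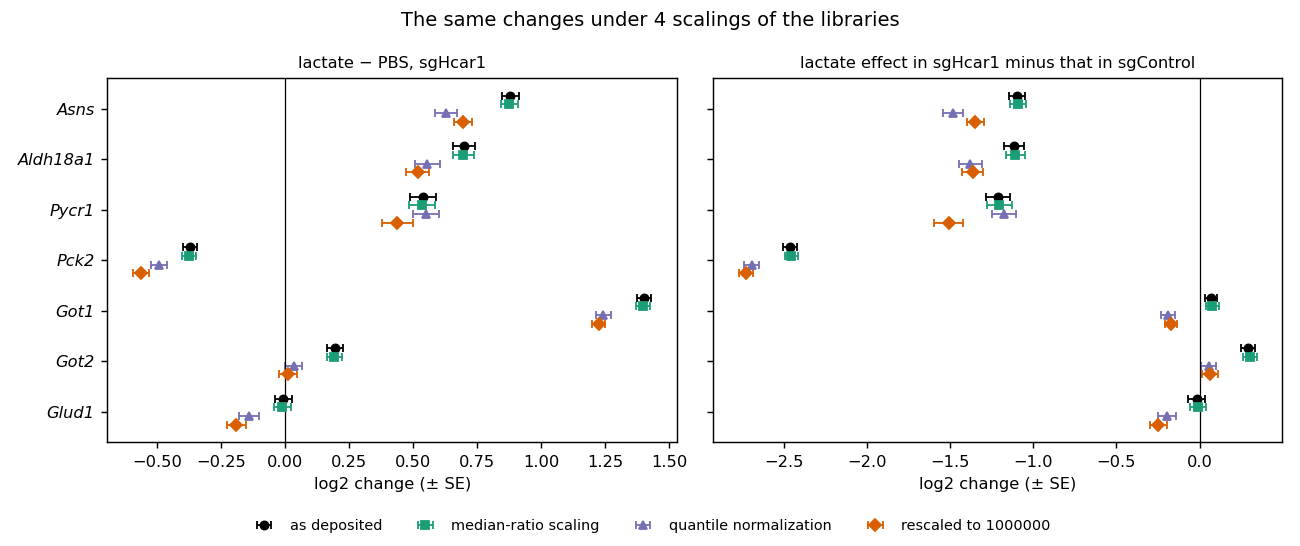
Log2 change ± SE (horizontal axes) of each transcript with lactate in sgHcar1 cells (left) and difference between the lactate effects (right) under 4 scalings of the libraries. The values of Asns, Aldh18a1, Pycr1 and Pck2 stay on 1 side of 0 under all 4, while the difference for Got1 goes from 0.07 as deposited to -0.17 when rescaled.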

How the data were processed

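RNA was extracted with Trizol and made into TruSeq libraries, per the labels' protocols. The authors deposited 1 table of FPKM per gene and library, as its headers state. HISAT2 2.0.5, featureCounts 1.5.0-p3 and GRCm38 are named in the submitters' processing notes. The fragments that make up the library size, the strand setting and any filters are not given in the sources used here. Gene identifiers are those of the C57BL/6NJ annotation, and the table was read by symbol. Columns were assigned by their letters, those of the sgHcar1 guide by elimination.

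The 7 genes, the related lists and the tests were chosen with earlier results of these data known. R 4.3.3 and limma 3.58.1 were run on log2(FPKM + 1) with an intensity trend, 1 mean per group, all 12 libraries and no replicate block, two-sided, with Benjamini-Hochberg adjustment over 13736 genes within each of 5 contrasts. The fit was tested on simulated data. Named genes were the 7 members, Hcar1, up to 3 called genes per related list and contrast by size of change, 10 stress response genes and the 3 most correlated genes per member. Genes named for their role beside these (Oat, Pck1, Slc25a12 and Slc25a13) and the cell type markers were picked after their values were seen. A gene of the proline list is not reported here. Promoters came from the RefSeq table of GRCm38.p6, where all 7 symbols matched, and coordinates are those of that table. Relative depth came from the most common ratio between libraries of values of at most 0.5 FPKM. Alternatives covered pseudocount, filters, scaling, variance trend, replicate block, array weights, fits of the compared groups alone and leaving out each library. Figures used Python 3.11.15 and matplotlib 3.10.9.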

Additional observations from a re-analysis of the deposited data

Results flagged for a closer look

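The difference between the lactate effects passed the threshold in limma over all genes (3 libraries per group) for 5 of the 7 transcripts. The list was drawn up with earlier results of these data known, so this is a description and no independent test. The lactate change in sgHcar1 minus that in sgControl cells was -1.10 for Asns, -1.12 for Aldh18a1, -1.21 for Pycr1, -2.46 for Pck2 and 0.29 for Got2. The difference for Got2 did not pass after rescaling each library to the same total (0.06) or quantile normalization (0.05). Of all genes 59.1% passed the same test. Groups of 3 libraries are too small to look for single libraries that stand apart.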

How the results depend on the processing

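Of 763 recomputed changes of the 7 transcripts, 739 kept their direction and their side of the threshold. Another 11 no longer passed, 6 newly passed with the same sign and 7 changed sign. All 109 for Asns and all 109 for Pck2 were kept. The sign changes were those of Got1 in the difference between lactate effects and of Glud1, whose changes were near 0. Got1 went to -0.17 with libraries rescaled to 1000000 and to -0.19 with quantile normalization, and both values newly passed. Glud1 went to -0.0004 for lactate in sgControl cells with median-ratio scaling. Without sgHcar1 PBS replicate 3 it went to 0.01 for lactate in sgHcar1 cells and to 0.0001 for the difference, and without sgHcar1 lactate replicate 2 to 0.03 and 0.02. Over the libraries left out in turn, Glud1 ran from -0.031 to 0.032 for lactate in sgHcar1 cells and from -0.043 to 0.021 for the difference. The cause was not tested. With quantile normalization Got2 did not pass for lactate under either guide (-0.02 and 0.03) or for their difference (0.05), Pycr1 did not pass between guides in PBS (-0.09), and Aldh18a1 between guides in lactate (-0.38) and Glud1 for lactate in sgHcar1 cells (-0.14) and for the difference (-0.20) passed. Pycr1 in PBS also did not pass in a fit of the compared groups alone.

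Counts of members and of related genes called stayed within 1.5 times of the values given, although the genes called and their directions could differ. Requiring a mean of at least 5 FPKM left 6815 genes called between guides in PBS and 7191 in lactate, since fewer genes were tested. Leaving out each library in turn gave 8524 to 9051 genes called for lactate in sgControl cells, 9541 to 9895 in sgHcar1 cells and 7716 to 7929 for the difference, and between guides 10120 to 10558 in PBS and 10980 to 11275 in lactate. Replicate numbers are shared between groups, but over the 18 pairs of same-numbered libraries in different groups the correlations of deviations from the group means were -0.051 to 0.085, none over 0.1, so they are taken to share only a number. With a replicate block, 8938 and 9899 genes were called for lactate in sgControl and sgHcar1 cells, 8044 for the difference and 10480 and 11260 between guides, and no call of the 7 transcripts changed. Without counts, the counting error of Pycr1, the lowest of the 7, is unknown.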
